A study of Mus musculus with 11 samples.

Results

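The C-type lectin receptors of the Dectin and Mincle families were followed across sorted mouse mammary tumour macrophages. They comprise 9 genes, Clec7a, Clec4n, Clec4d, Clec4e, Clec4a1, Clec4a2, Clec4a3, Clec5a and Clec12a, taken by gene symbol from the 17475 rows of a table of log2 expression values. All 9 were measured in all 11 libraries. The libraries held messenger RNA of tumour-associated macrophages (TAMs) and mammary tissue macrophages (MTMs) from 6 female mice, backcrossed to B6, that all carried PyMT, an oncogene expressed in mammary epithelium.

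MYC TAMs came from mice 2, 4 and 6 and control TAMs from mice 1, 3 and 5. MYC MTMs came from mice 2 and 4 and control MTMs from mice 1, 3 and 5. MYC mice had the genotype S100a8-creRosa26-LSL-MYCPyMT, in which Cre under the promoter of the myeloid gene S100a8 switches on a MYC transgene at Rosa26, and control mice carried PyMT alone. Both genotypes were lethally irradiated at 7 weeks of age and received 3 M bone marrow cells of wild-type B6 mice (M for mega), so the MYC genotype is that of the host. The labels do not say how many host blood cells remained. From 2 weeks later all mice ate a low protein diet for 6 weeks, and every library analysed here was on that diet. Both cell types were gated as CD45+ SiglecF- Ly6G- B220- Ly6C- F4/80+ cells, TAMs as Vcam+ and MTMs as Vcam- FOLR2+. The question set by the design is how the receptors differ between the cell types and between the genotypes.

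These receptors sit on the surface of myeloid cells, and several of them bind carbohydrates or glycolipids of microbes or of damaged cells. Clec7a (Dectin-1) binds beta-glucan of fungal walls and recruits the kinase Syk through its own tail, whereas Clec4n (Dectin-2), Clec4d (MCL) and Clec4e (Mincle) signal through the adaptor Fcer1g, and Clec5a (MDL-1) through Tyrobp and Hcst. Syk then acts through Card9, Bcl10 and Malt1 on NF-kB and cytokine genes, while Clec4a2 (DCIR) and Clec12a (MICL) carry inhibitory tails that recruit the phosphatases Ptpn6 and Ptpn11.

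All 9 genes lie on chromosome 6 of GRCm38, per the GENCODE annotation. Clec4a1 (ENSMUSG00000049037.8, chr6:122921848-122934619), Clec4a3 (ENSMUSG00000043832.13, chr6:122952515-122969875), Clec4a2 (ENSMUSG00000030148.15, chr6:123106428-123143999), Clec4n (ENSMUSG00000023349.14, chr6:123229843-123247021), Clec4d (ENSMUSG00000030144.4, chr6:123262111-123275265) and Clec4e (ENSMUSG00000030142.10, chr6:123281789-123289870) form one cluster. Only 15.1 kb separate Clec4n from Clec4d and 6.52 kb separate Clec4d from Clec4e. Clec12a (ENSMUSG00000053063.11, chr6:129342691-129365303) and Clec7a (ENSMUSG00000079293.11, chr6:129461591-129472779) lie 96.3 kb apart in a second cluster, and Clec5a (ENSMUSG00000029915.14, chr6:40574894-40585821) stands alone. GENCODE types Clec7a as a polymorphic pseudogene and the other 8 as protein coding. No exon of another annotated gene overlapped an exon of a member. The transcripts of Clec4a2 shared 6.69% of their 50-base stretches with other genes, among them Clec4a4 and Clec4b1, so its reads may be divided in part. The share was 0.686% for Clec4n, 0.402% for Clec12a and 0 for the other 6.

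The stretches of 250 bases before the transcription start are printed for 4 receptors that differed between MYC TAMs and control TAMs, Clec7a and Clec4d upward and Clec4a2 and Clec4a3 downward, as the members the genotype comparison in TAMs turns on. They are RefSeq windows of GRCm38.p6, for Clec7a chr6:129472780-129473029 on the minus strand, for Clec4d chr6:123261857-123262106, for Clec4a2 chr6:123122440-123122689 and for Clec4a3 chr6:122952265-122952514 on the plus strand, each written 5′ to 3′ along the gene, and capitals mark a match to GAGGAA, the core bound by the myeloid factor PU.1, on either strand (written TTCCTC where it lies on the other strand). The RefSeq start of Clec4a2 lies within the GENCODE gene, and where 2 starts are listed, as for Clec7a and Clec4a3, the first was used.
Clec7a: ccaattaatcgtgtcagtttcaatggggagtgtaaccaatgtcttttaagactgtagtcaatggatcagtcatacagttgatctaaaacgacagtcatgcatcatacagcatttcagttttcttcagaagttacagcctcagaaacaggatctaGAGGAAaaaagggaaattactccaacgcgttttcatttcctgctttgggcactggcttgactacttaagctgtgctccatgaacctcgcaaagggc
Clec4d: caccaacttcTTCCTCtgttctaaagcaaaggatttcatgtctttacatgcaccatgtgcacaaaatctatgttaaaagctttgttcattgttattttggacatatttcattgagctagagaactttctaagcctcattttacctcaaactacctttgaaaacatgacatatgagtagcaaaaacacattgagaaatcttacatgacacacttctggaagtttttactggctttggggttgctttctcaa
Clec4a2: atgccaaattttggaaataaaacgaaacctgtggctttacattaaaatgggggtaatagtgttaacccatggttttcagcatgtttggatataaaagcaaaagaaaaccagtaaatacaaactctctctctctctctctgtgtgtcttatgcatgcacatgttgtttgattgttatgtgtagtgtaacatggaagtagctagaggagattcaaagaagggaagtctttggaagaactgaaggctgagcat
Clec4a3: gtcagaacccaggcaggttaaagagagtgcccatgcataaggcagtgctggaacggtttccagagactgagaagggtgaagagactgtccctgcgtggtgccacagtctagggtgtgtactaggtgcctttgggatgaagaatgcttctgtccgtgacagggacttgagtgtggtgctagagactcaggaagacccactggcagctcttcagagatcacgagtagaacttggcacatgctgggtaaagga
GAGGAA was found in the windows of Clec7a and Clec4d and not in those of Clec4a2 and Clec4a3. Among the 8 members with a RefSeq window (Clec4n has none in the table used) it occurred in 6, against 23.1% of 27025 mouse genes. Beside Clec7a and Clec4d these were Clec4e, Clec4a1, Clec5a and Clec12a, which did not pass the test between MYC TAMs and control TAMs. The E-box CACGTG, which MYC can bind, occurred in 0 of the 8 windows, against 6.05% of all genes. TGANTCA, the site of AP-1 factors, was present in 1 of 8, against 6.87%, and TTGCNNAA, the site of C/EBP factors, in 2 of 8, against 9.55%. Both strands were searched, no match of one motif overlapped a match of another, and a match describes letters, not binding.

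A level below is the deposited value, log2 of a read number scaled for depth and length plus 1, and a difference is between group means of levels with its standard error (SE). Tests are limma's, two-sided, adjusted by Benjamini-Hochberg over all 17475 genes with a threshold of 0.05. The fold given with a difference is on this log2(value + 1) scale and understates changes of low genes. Libraries had an estimated 32.1 to 42.7 M reads in genes. MYC TAM mouse 4 had the lowest of these estimates, 32.1 M. Among genes whose lowest value was shared between libraries, it had 581 at that value, against 2072 to 3522 in the other 10 libraries. In this library 1 read was estimated at 1.095 of the shared lowest value, against 0.851 to 0.951 in the other 10. A gene with 1 read could thus lie above that value only in MYC TAM mouse 4, and the part of this in the count was not tested. All members except Clec4e had an estimated 161 reads or more in every library. The log2 of the summed level of 9 macrophage markers, of which the complement gene C1qb had the highest mean in each group, was 12.2 to 12.4 in MYC TAMs, 12.9 to 13.4 in control TAMs, 12.8 to 13.0 in MYC MTMs and 12.8 to 13.0 in control MTMs. All 9 were detected in every library, although Aif1 was at 0.24 in 1 control TAM library and at 8.79 in another. Relative to control TAMs, 5 of the 9 fell in MYC TAMs and 1 rose. Csf1r, the receptor for the macrophage growth factor, had a difference of -2.57 ± 0.20 (SE; limma, adjusted p = 6.34e-05). Emr1, which encodes the gate antigen F4/80, had one of -1.81 ± 0.26 (SE; limma, adjusted p = 0.00148). For Fcgr1, C1qa and C1qc the differences were -2.00 ± 0.35, -1.62 ± 0.25 and -0.66 ± 0.17 (SE; limma, adjusted p = 0.00497, 0.00244 and 0.0282). Cd68 rose by 1.95 ± 0.15 (SE; limma, adjusted p = 6.61e-05). The part of this in the receptor differences was not tested. The mouse Myc row averaged lower in MYC TAMs than in control TAMs, with a difference of -1.02 ± 0.19 (SE; adjusted p = 0.00583). It cannot check the genotype, because the sources do not say whether transgene reads were counted in it. In such bulk samples, fewer cells of a type and less RNA per cell cannot be told apart.

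In MYC TAMs, 5 of the 9 receptors differed from control TAMs, 2 upward and 3 downward, where 15.9% of all genes passed the test (3.89% higher and 12.0% lower). Clec4d and Clec7a rose, and Clec4n, Clec4a2 and Clec4a3 fell. With the libraries centred on their medians the median difference of all genes moved by 0.206 on the log2 scale and the share of higher genes among all calls was 69.9%, against 24.5% on the deposited values and 41.6% after quantile normalisation. The 5 calls and their directions stood under all 3 scalings and without any one library.

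Clec4d, the partner of Mincle that binds mycobacterial glycolipid, had the largest difference of the 9 members. Its level was 6.23, 5.59 and 5.93 in MYC TAMs of mice 2, 4 and 6, against 2.96, 2.14 and 2.72 in control TAMs of mice 1, 3 and 5. Every MYC TAM library stood above every control one, and the difference was 3.31 ± 0.26 (SE), 9.92-fold (limma, adjusted p = 6.34e-05). Clec4d had a higher mean than 94.5% of genes in MYC TAMs and than 67.2% in control TAMs.

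Clec7a, the beta-glucan receptor, had the highest mean of the 9 in both TAM groups, although Clec4a3 was above it in control TAM mouse 1. Its level was 8.55, 9.01 and 8.40 in MYC TAMs and 6.86, 7.32 and 7.76 in control TAMs. The groups did not overlap, and it rose by 1.34 ± 0.27 (SE), 2.53-fold (limma, adjusted p = 0.00894).

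Clec4n, the mannan receptor encoded beside Clec4d, fell. Its level was 3.23, 4.00 and 4.07 in MYC TAMs, against 6.23, 5.62 and 6.45 in control TAMs. No library of one group reached the other, and the difference was -2.33 ± 0.31 (SE), 5.03-fold (limma, adjusted p = 0.00106).

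Clec4a2, which carries an inhibitory tail, stood at 2.58, 2.54 and 2.31 in MYC TAMs and at 4.44, 4.47 and 4.57 in control TAMs. The spread within each group was small, and the difference was -2.02 ± 0.22 (SE), 4.05-fold (limma, adjusted p = 0.000410). Clec4a3, a close relative in the DCIR group, stood at 5.86, 5.99 and 6.50 in MYC TAMs and at 7.21, 7.19 and 7.09 in control TAMs. Here too the groups were apart, by -1.05 ± 0.17 (SE), 2.07-fold (limma, adjusted p = 0.00328).

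The other 4 receptors did not pass the test between MYC TAMs and control TAMs. Clec12a, the inhibitory receptor for uric acid crystals, had levels of 3.27, 3.48 and 4.31 in MYC TAMs, against 2.81, 2.91 and 3.02 in control TAMs. The groups did not overlap, yet the difference of 0.77 ± 0.27 (SE) had an adjusted p of 0.0832 in limma, and of 0.0317 with centred libraries, 0.0315 after quantile normalisation and 0.0474 without MYC TAM mouse 2. Clec5a averaged 2.77 ± 0.32 in MYC TAMs and 3.23 ± 0.28 in control TAMs (SD, n = 3 each) with overlap, and had an adjusted p of 0.260 in limma. Clec4a1 averaged 3.76 ± 0.77 in MYC TAMs and 3.36 ± 0.64 in control TAMs (SD, n = 3 each; limma, adjusted p = 0.539). Clec4e was the lowest member, at 0.54, 1.84 and 0.48 in MYC TAMs, against 0.61, 0.48 and 0.75 in control TAMs (limma, adjusted p = 0.509). The value of 1.84 belongs to mouse 4, the library with the lowest depth estimate and the fewest genes at their lowest value. This value rests on an estimated 309 reads against 57.8 to 96.3 in control TAMs.

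**Figure D1:**
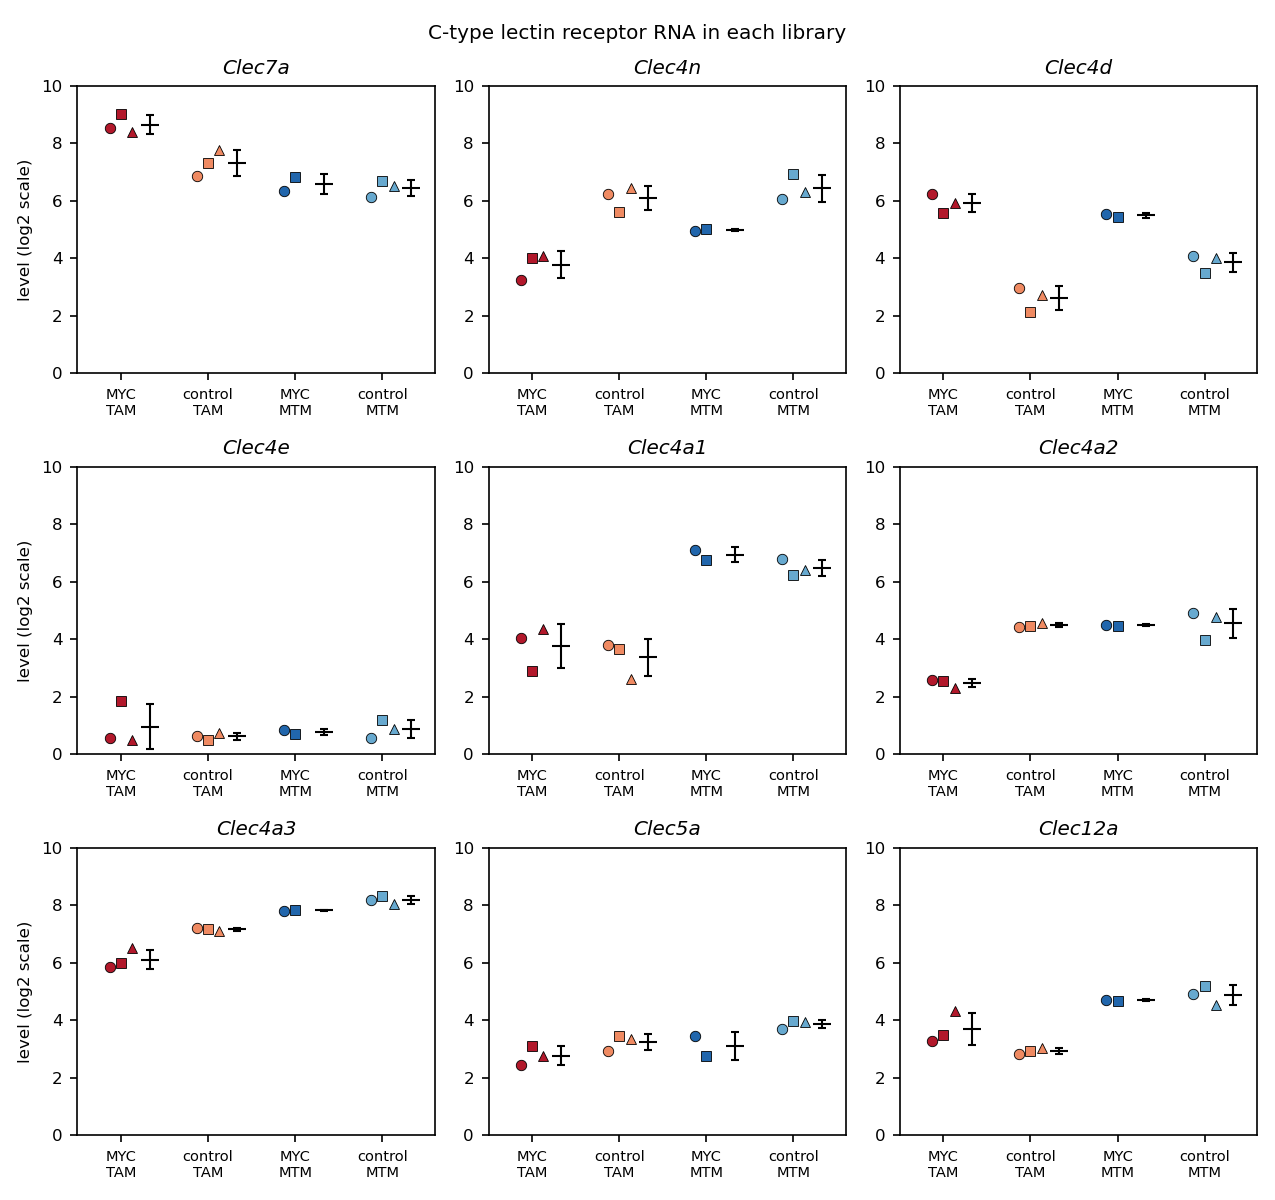
Levels of the 9 receptors by library, on the log2 scale of the deposited values, with the mean ± SD of each group as a cross beside its points, for MYC TAMs, control TAMs, MYC MTMs and control MTMs. Circles are mice 1 and 2, squares mice 3 and 4, and triangles mice 5 and 6; Clec4d sits at 5.59 to 6.23 in MYC TAMs and at 2.14 to 2.96 in control TAMs, and Clec4e stays at or below 1.84 in every library.

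Libraries of MYC TAMs and control TAMs did not overlap for 6 of the 9 members, namely the 5 above and Clec12a, against 30.1% of all genes. Markers of other cell types also differed between these groups, and their part in the receptor differences was not tested. The log2 summed level of 10 monocyte markers was 8.27 to 9.47 in MYC TAMs and 5.49 to 7.05 in control TAMs, with 1 marker called higher (Chi3l3) and 1 lower (Itga4). Most of the sum in MYC TAMs was Chi3l3, which averaged 8.49 ± 0.67 in MYC TAMs and 0.87 ± 0.36 in control TAMs (SD, n = 3 each), and the median difference of the 10 was -0.14. For 11 neutrophil markers the log2 summed level was 6.26 to 7.21 in MYC TAMs and 7.45 to 8.20 in control TAMs, with 3 called higher, among them S100a8 and Mmp8, and 1 lower (Ltf). The largest part of the sum in control TAMs was Ltf, which averaged 2.92 ± 1.68 in MYC TAMs and 7.39 ± 0.44 in control TAMs (SD, n = 3 each). The median difference of the 11 was 0.16. For 11 dendritic cell markers the log2 summed level was 1.76 to 2.71 in MYC TAMs and 4.34 to 4.47 in control TAMs, with 4 called lower. For 9 T and NK cell markers it was 1.80 to 3.05 in MYC TAMs and 5.80 to 6.88 in control TAMs, with 7 called lower. For 9 epithelial markers it was 5.15 to 8.51 in MYC TAMs and 8.82 to 10.1 in control TAMs, with 4 called lower. Of 5 B cell markers 2 were called lower, and of 5 eosinophil and mast cell markers 1 was called higher.

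In MTMs, Clec4d was the only member that passed the test between the genotypes, where 0.618% of all genes passed it (0.338% higher). Clec4d stood at 5.55 and 5.43 in MYC MTMs, against 4.08, 3.48 and 4.02 in control MTMs. Both MYC libraries were above all 3 control ones, and the difference was 1.64 ± 0.29 (SE), 3.11-fold (limma, adjusted p = 0.0455). This call is close to the threshold: it held only without MYC TAM mouse 2 or control TAM mouse 3, and without each of the other 9 libraries the adjusted p was 0.0559 to 0.345. It also had an adjusted p of 0.0505 without the variance trend, 0.0528 with a pseudocount of 0.1, 0.0714 after quantile normalisation and 0.134 with only MTM libraries in the fit.

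Clec4n was at 4.96 and 5.01 in MYC MTMs and at 6.06, 6.94 and 6.29 in control MTMs. The groups did not overlap, but the difference of -1.45 ± 0.34 (SE) had an adjusted p of 0.121 in limma. Clec5a, at 3.44 and 2.74 in MYC MTMs and 3.70, 3.98 and 3.93 in control MTMs, had a difference of -0.78 ± 0.27 (SE; limma, adjusted p = 0.324). Clec4a3, at 7.81 and 7.85 in MYC MTMs and 8.19, 8.31 and 8.05 in control MTMs, had a difference of -0.35 ± 0.19 (SE; limma, adjusted p = 0.615). Non-overlapping libraries were found for 4 of the 9 members, these 3 and Clec4d, against 31.2% of all genes.

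The remaining 5 receptors had overlapping libraries in MTMs of the genotypes. Clec7a averaged 6.59 ± 0.35 in MYC MTMs (SD, n = 2) and 6.44 ± 0.28 in control MTMs (SD, n = 3). Clec4a1 averaged 6.94 ± 0.26 in MYC MTMs and 6.48 ± 0.29 in control MTMs, and Clec12a 4.70 ± 0.03 in MYC MTMs and 4.88 ± 0.33 in control MTMs. Clec4a2 averaged 4.49 ± 0.03 in MYC MTMs and 4.55 ± 0.51 in control MTMs, and Clec4e 0.76 ± 0.09 in MYC MTMs and 0.87 ± 0.31 in control MTMs. Their limma differences lay between -0.18 and 0.46, each with an adjusted p of 0.906 or more.

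In control mice, TAMs had lower levels than MTMs of 4 receptors, Clec4a1, Clec12a, Clec4d and Clec4a3, and of the 9 members 0 passed upward, where 2.37% of all genes passed the test (0.744% higher and 1.63% lower). Clec4a1, of the DCIR group, had the largest difference. It stood at 3.79, 3.67 and 2.63 in control TAMs, against 6.80, 6.23 and 6.41 in control MTMs. The groups were far apart, by -3.12 ± 0.41 (SE), 8.69-fold (limma, adjusted p = 0.00358).

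Clec12a stood at 2.81, 2.91 and 3.02 in control TAMs, against 4.91, 5.19 and 4.53 in control MTMs. It too was lower in every TAM library, with a difference of -1.96 ± 0.27 (SE), 3.90-fold (limma, adjusted p = 0.00425). The calls of Clec4a1 and Clec12a stood under every alternative tried. Clec4a3 differed by -1.02 ± 0.17 (SE), 2.03-fold (limma, adjusted p = 0.0133), and every control TAM library was below every control MTM one. Left out in turn, control TAM mice 1 and 5 gave an adjusted p of 0.0575 and 0.0587 and control MTM mouse 1 gave 0.0567, and centred libraries gave 0.0677.

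Clec4d differed by -1.25 ± 0.26 (SE), 2.38-fold (limma, adjusted p = 0.0374), with control TAMs below control MTMs in every library. The call held without MYC TAM mouse 2 or control MTM mouse 3, whereas without each of the other 9 libraries the adjusted p was 0.0524 to 0.155. It was 0.103 with centred libraries, 0.0749 after quantile normalisation and 0.151 with only the control libraries in the fit.

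Clec7a differed by 0.87 ± 0.27 (SE) between control TAMs and control MTMs (limma, adjusted p = 0.170). All 3 control TAM libraries, at 6.86 to 7.76, were above the 3 control MTM libraries, at 6.14 to 6.69. Clec5a differed by -0.64 ± 0.24 (SE; limma, adjusted p = 0.289), also without overlap. In all, 6 of the 9 members had libraries that did not overlap here, against 18.9% of all genes. Clec4n differed by -0.33 ± 0.31 (SE; adjusted p = 0.872), Clec4e by -0.26 ± 0.33 (SE; adjusted p = 0.969) and Clec4a2 by -0.06 ± 0.22 (SE; adjusted p = 1) in limma, all with overlap.

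Markers of other cell types differed between control TAMs and control MTMs as well, and their part in the receptor differences was not tested. Of 10 monocyte markers 2 were called lower in control TAMs, Fn1 and Ccr2, with differences of -5.67 ± 0.60 and -3.76 ± 0.34 (SE; limma, adjusted p = 0.00104 and 0.000506), with a log2 summed level of 5.49 to 7.05 in control TAMs and 8.11 to 10.7 in control MTMs. Of 11 dendritic cell markers 2 were lower, Cd209a (-4.64) and Kmo (-1.78), and Siglech (1.02) was higher, with sums of 4.34 to 4.47 in control TAMs and 5.31 to 6.54 in control MTMs. Of 11 neutrophil markers 2 were lower, Mmp9 (-2.11) and Mmp8 (-0.98), with sums of 7.45 to 8.20 in control TAMs and 6.98 to 8.30 in control MTMs. Of 9 T and NK cell markers 0 passed in limma, and 6 had an unadjusted p below 0.05. Their median difference was 1.15, with sums of 5.80 to 6.88 in control TAMs and 3.99 to 5.26 in control MTMs. Of the 9 macrophage markers 0 passed in limma, and 0 had an unadjusted p below 0.05.

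In MYC mice, TAMs had a higher level than MTMs of Clec7a and lower levels of Clec4a1, Clec4a3 and Clec4a2, 4 of the 9 members, where 4.49% of all genes passed the test (0.664% higher and 3.82% lower). The share of higher genes among all calls was 14.8% on the deposited values, 35.8% with centred libraries and 29.9% after quantile normalisation. Clec7a lay between 8.40 and 9.01 in MYC TAMs, against 6.34 and 6.83 in MYC MTMs. It was higher in TAMs by 2.07 ± 0.30 (SE), 4.20-fold (limma, adjusted p = 0.00573).

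Clec4a1 was at 4.04, 2.89 and 4.36 in MYC TAMs and at 7.12 and 6.76 in MYC MTMs. The difference was -3.18 ± 0.46 (SE), 9.04-fold (limma, adjusted p = 0.00555), against -3.12 in control mice. Without MYC MTM mouse 2 the adjusted p was 0.0803 for Clec7a and 0.0715 for Clec4a1, and with only the MYC libraries in the fit it was 0.0716 for Clec7a, 0.0861 for Clec4a1 and 0.0735 for Clec4a3.

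Clec4a2, at 2.31 to 2.58 in MYC TAMs, was at 4.51 and 4.47 in MYC MTMs, a difference of -2.02 ± 0.25 (SE), 4.04-fold (limma, adjusted p = 0.00248). Clec4a3 differed by -1.72 ± 0.19 (SE), 3.29-fold (limma, adjusted p = 0.00154). Both of these DCIR relatives were lower in MYC TAMs than in any of the other 3 groups, library by library.

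The other 5 members did not pass between MYC TAMs and MYC MTMs. Clec12a differed by -1.01 ± 0.30 (SE; limma, adjusted p = 0.101, and 0.0122 without MYC TAM mouse 6). Clec4n differed by -1.21 ± 0.34 (SE; limma, adjusted p = 0.0904, and 0.0484 when genes with a mean below 1 were left out). Clec4d, at 5.59 to 6.23 in MYC TAMs and 5.43 to 5.55 in MYC MTMs, differed by 0.43 ± 0.29 (SE; limma, adjusted p = 0.555). Clec5a differed by -0.32 ± 0.27 (SE; adjusted p = 0.592) and Clec4e by 0.19 ± 0.37 (SE; adjusted p = 0.822) in limma. Libraries did not overlap for 7 of the 9 members, all but Clec4e and Clec5a, against 30.4% of all genes. Of other cell type markers, 5 of 10 for monocytes, among them Fn1 (-5.81) and Ccr2 (-3.36), and 3 of 11 for dendritic cells also fell in MYC TAMs. Of the 9 macrophage markers, Csf1r, Emr1 and C1qa fell and Cd68 rose, and of 11 neutrophil markers Mmp9 fell and Mmp8 rose. Of 9 epithelial markers Cdh1 fell (-2.19), and of 5 B cell markers Cd79b fell (-2.32). Their part in the receptor differences was not tested. Log2 summed levels of monocyte markers were 8.27 to 9.47 in MYC TAMs and 8.78 to 9.22 in MYC MTMs. The largest part was Chi3l3 in MYC TAMs (mean 8.49, against 5.96 in MYC MTMs). In MYC MTMs it was Fn1 (mean 8.45, against 2.65 in MYC TAMs). Similar sums thus rest on different genes, and the median difference of the 10 was -0.97. For dendritic cell markers the sums were 1.76 to 2.71 in MYC TAMs and 3.74 to 4.63 in MYC MTMs.

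**Figure D2:**
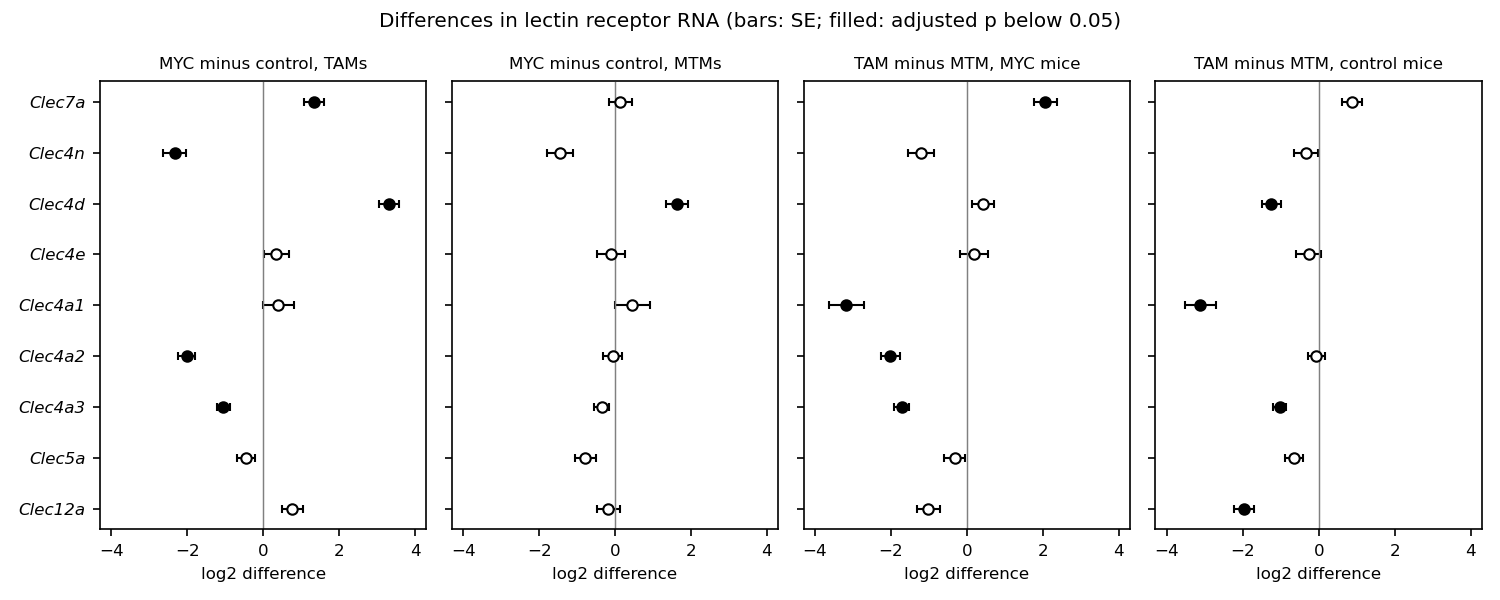
Differences of the 9 receptors on the log2 scale with standard errors, for TAMs minus MTMs in both genotypes and MYC minus control in both cell types, with filled points for an adjusted p below 0.05. The largest, 3.31 for Clec4d, is between MYC TAMs and control TAMs, and Clec4a1 lies near -3 in both TAM against MTM comparisons.

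The cell type comparisons of the genotypes share no library, and the difference between them was tested as an interaction, TAMs minus MTMs in MYC mice minus the same in control mice. It passed for 1 of the 9 members, Clec4a2, where 1.24% of all genes passed (0.996% lower). Clec4a2 had a difference of differences of -1.95 ± 0.34 (SE; limma, adjusted p = 0.0296). MYC TAMs were at 2.31 to 2.58, while control TAMs, MYC MTMs and control MTMs together covered 3.97 to 4.90. The call is fragile. It held without MYC TAM mouse 6 or either of control MTM mice 1 and 3, and without each of the other 8 libraries the adjusted p was 0.0523 to 0.151. It was 0.0826 after quantile normalisation and 0.106 with the mouse as a fixed block.

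For Clec4d the interaction was 1.67 ± 0.38 (SE; limma, adjusted p = 0.0831), and the adjusted p was 0.0437 when genes with a mean below 1 were left out and 0.0469 with the mouse as a random block. For Clec7a it was 1.20 ± 0.40 (SE; adjusted p = 0.259), for Clec12a 0.95 (adjusted p = 0.412) and for Clec4n -0.88 (adjusted p = 0.569) in limma. A genotype difference that depends on the cell type is thus not shown for these 3. Nor is it shown for Clec4d, which passed under only 2 of 18 alternatives, or for the members that follow. For Clec4a3 the interaction was -0.69 (limma, adjusted p = 0.322, and 0.0491 without MYC TAM mouse 6). Clec4e, Clec5a and Clec4a1 had interactions of 0.46, 0.32 and -0.06, with adjusted p of 0.787, 0.789 and 0.975 in limma.

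The order of the 4 groups differed from gene to gene. For Clec7a it ran MYC TAMs, control TAMs, MYC MTMs, control MTMs from high to low, with the 2 MTM groups overlapping. For Clec4d it ran MYC TAMs, MYC MTMs, control MTMs, control TAMs, with no overlap between neighbours. For Clec4n it ran control MTMs, control TAMs, MYC MTMs, MYC TAMs, with the 2 control groups overlapping. Clec4a3 ran from control MTMs through MYC MTMs and control TAMs to MYC TAMs without overlap, and for Clec4a2 the upper 3 groups overlapped. For Clec12a and Clec4a1 every MTM library was above every TAM library. Clec5a was highest in control MTMs, without overlap with control TAMs, and the lower 3 groups overlapped, as all 4 did for Clec4e.

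The receptor make-up of the cells was set by a few members. On unlogged values per length, Clec7a supplied 68.4%, 76.8% and 61.1% of the summed level of the 9 receptors in MYC TAMs, against 29.6%, 39.2% and 44.2% in control TAMs. In MYC MTMs it supplied 13.9% and 19.7%, and in control MTMs 11.1%, 14.8% and 15.1%. Every MYC TAM library exceeded every library of the other groups. Clec4a3 supplied 9.29% to 16.3% in MYC TAMs, 27.8% to 37.6% in control TAMs, 38.9% and 39.9% in MYC MTMs and 44.5% to 46.7% in control MTMs. It was the largest part in both MTM groups.

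Clec4a1 supplied 18.6% and 24.0% in MYC MTMs and 10.7% to 17.8% in control MTMs, while in TAMs of either genotype it stayed at or below 3.54%. Clec4n supplied 1.53% to 2.88% in MYC TAMs, 11.9% to 19.0% in control TAMs, 5.22% and 5.42% in MYC MTMs and 10.5% to 17.7% in control MTMs. Clec4d supplied 7.03% to 13.5% in MYC TAMs, 0.84% to 1.74% in control TAMs, 7.33% and 7.97% in MYC MTMs and 1.46% to 2.55% in control MTMs. These shares sum to 100% within a library, so a rise of one lowers the others.

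**Figure D3:**
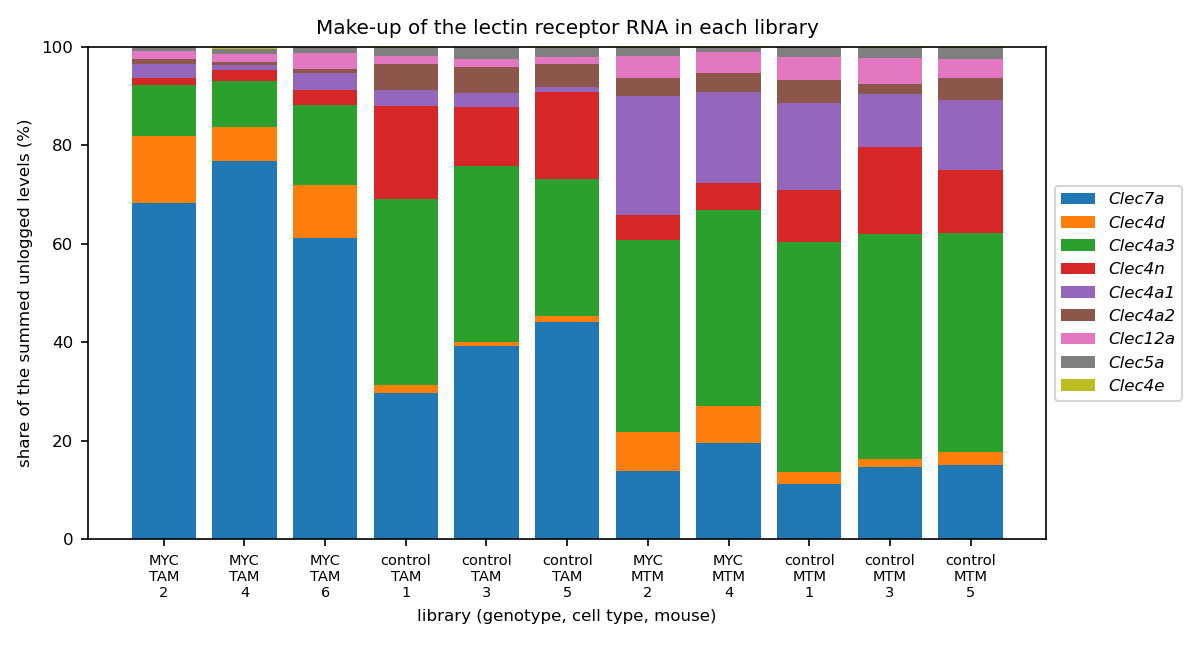
Share of each receptor in the summed unlogged level of the 9, in percent, 1 stacked bar per library, ordered as MYC TAMs, control TAMs, MYC MTMs and control MTMs. Clec7a takes 61.1% or more in MYC TAMs and at most 44.2% in control TAMs.

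The neighbours Clec4n and Clec4d share the adaptor Fcer1g and lie 15.1 kb apart on the same strand. They differed between MYC TAMs and control TAMs in opposite directions. In MTMs the differences had the same signs, but Clec4n did not pass (limma, adjusted p = 0.121) and the Clec4d call was close to the threshold. Within a library, the level of Clec4d minus that of Clec4n was 3.00, 1.59 and 1.86 in MYC TAMs and -3.27, -3.49 and -3.72 in control TAMs. It was 0.59 and 0.42 in MYC MTMs and -1.98, -3.47 and -2.28 in control MTMs. All 5 MYC libraries had more Clec4d than Clec4n per length, and all 6 control libraries had more Clec4n. TAM and MTM libraries of the same mouse are among them, so these libraries are not independent. Clec4e, the next gene, was low in all 4 groups, with a mean above that of 39.0% to 48.8% of genes.

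**Figure D4:**
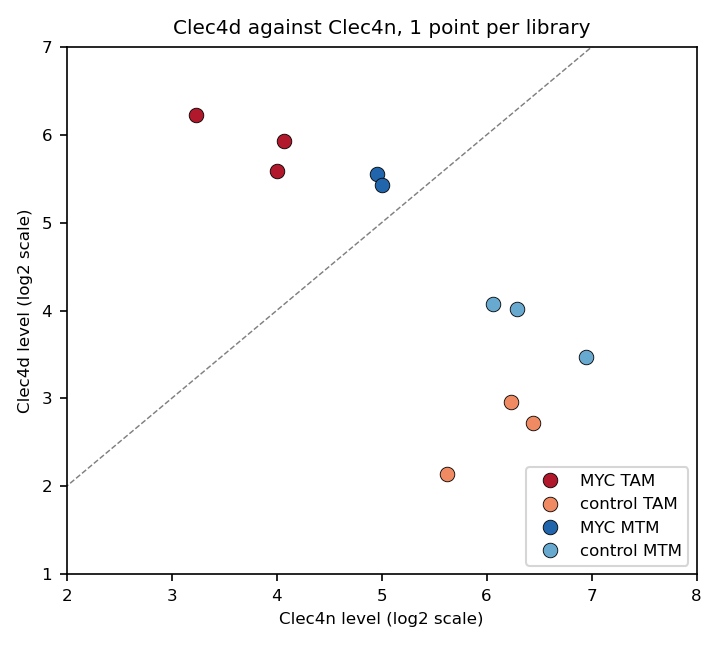
Level of Clec4d against level of Clec4n on the log2 scale, 1 point per library, with a line of equal levels. The 5 MYC libraries lie on the side of Clec4d and the 6 control libraries on the side of Clec4n.

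Across the 11 libraries, which fall into 4 groups and include 5 pairs from a single mouse, levels of several members moved with or against each other. These correlations are descriptions. Pearson's r was -0.94 for Clec7a with Clec4a3, -0.88 for Clec7a with Clec4a2 and -0.82 for Clec4n with Clec4d. It was 0.88 for Clec4a1 with Clec12a and 0.82 for Clec4a2 with Clec4a3. Clec4e had no r beyond -0.28 to 0.30 with any other member.

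The search for similar genes covered 8746 genes whose mean was at least 1. Gene models with Gm or Rik symbols, other clone-type symbols and repeated symbols were left out. For each member, the genes with the most similar pattern over the 11 libraries were listed by Pearson's r. For Clec4d they were Sestd1 (0.981), Gpnmb (0.977), a glycoprotein of lipid-laden macrophages, and Atp6v0d2 (0.976), a subunit of the lysosomal proton pump. For Clec7a they were Cd63 (0.940), a tetraspanin of late endosomes, Tmem82 (0.932) and Yae1d1 (0.930). For Clec4n they were Gpr34 (0.986), a receptor for lysophosphatidylserine, Hpgd (0.980), which breaks down prostaglandins, and Skap2 (0.980). For Clec4a1 the first was Cd163 (0.970), the haemoglobin scavenger receptor, and for Clec12a the third was Mrc1 (0.945), the mannose receptor. Those of Clec4a3 were Dab2 (0.981), Cysltr1 (0.973) and Xrn2 (0.971), and those of Clec4a2 Dcp1a (0.983), Pld4 (0.981) and Luzp1 (0.977). Those of Clec5a were Rbl1 (0.949), Nsun6 (0.946) and Nedd1 (0.934), and those of Clec4e Spryd4 (0.907), Alyref (0.907) and Snx20 (0.897).

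Signalling partners of the receptors moved in both directions. Of 15 partners, all measured, 1 was higher and 5 lower in MYC TAMs than in control TAMs, where 15.9% of all genes passed, with a median difference of -0.33 against -0.02 for all genes. The shared adaptors did not pass. Fcer1g averaged 11.6 ± 0.24 in MYC TAMs and 11.7 ± 0.13 in control TAMs (SD, n = 3 each; limma, adjusted p = 0.736), and Tyrobp 13.1 ± 0.24 in MYC TAMs and 13.0 ± 0.21 in control TAMs (SD, n = 3 each; limma, adjusted p = 0.692). For both adaptors the libraries of the groups overlapped. Syk averaged 3.78 ± 0.11 in MYC TAMs and 3.17 ± 0.06 in control TAMs (SD, n = 3 each; limma, adjusted p = 0.118), and Card9 had a difference of -0.24 ± 0.21 (SE; adjusted p = 0.470).

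Hcst, the second adaptor of Clec5a, rose by 1.80 ± 0.35 (SE; limma, adjusted p = 0.00756, and 0.0539 with only TAM libraries in the fit). Of the genes that fell, Plcg2, a phospholipase below Syk, differed by -1.54 ± 0.24 and the exchange factor Vav1 by -0.98 ± 0.12 (SE; limma, adjusted p = 0.00227 and 0.000640). The kinase Lyn averaged 5.63 ± 0.04 in MYC TAMs and 6.64 ± 0.40 in control TAMs (SD, n = 3 each; limma, adjusted p = 0.00959). The phosphatases Ptpn6 and Inpp5d differed by -1.12 ± 0.19 and -1.11 ± 0.21 (SE; limma, adjusted p = 0.00430 and 0.00781). These 5 stood under every alternative. Of the phosphatases that the inhibitory tails recruit, Ptpn6 thus fell, and Ptpn11 had a difference of -0.27 ± 0.21 (SE; limma, adjusted p = 0.436). Bcl10, Malt1 and Prkcd had differences of -0.33, -0.49 and 0.12 (limma, adjusted p = 0.311, 0.143 and 0.782).

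**Figure D5:**
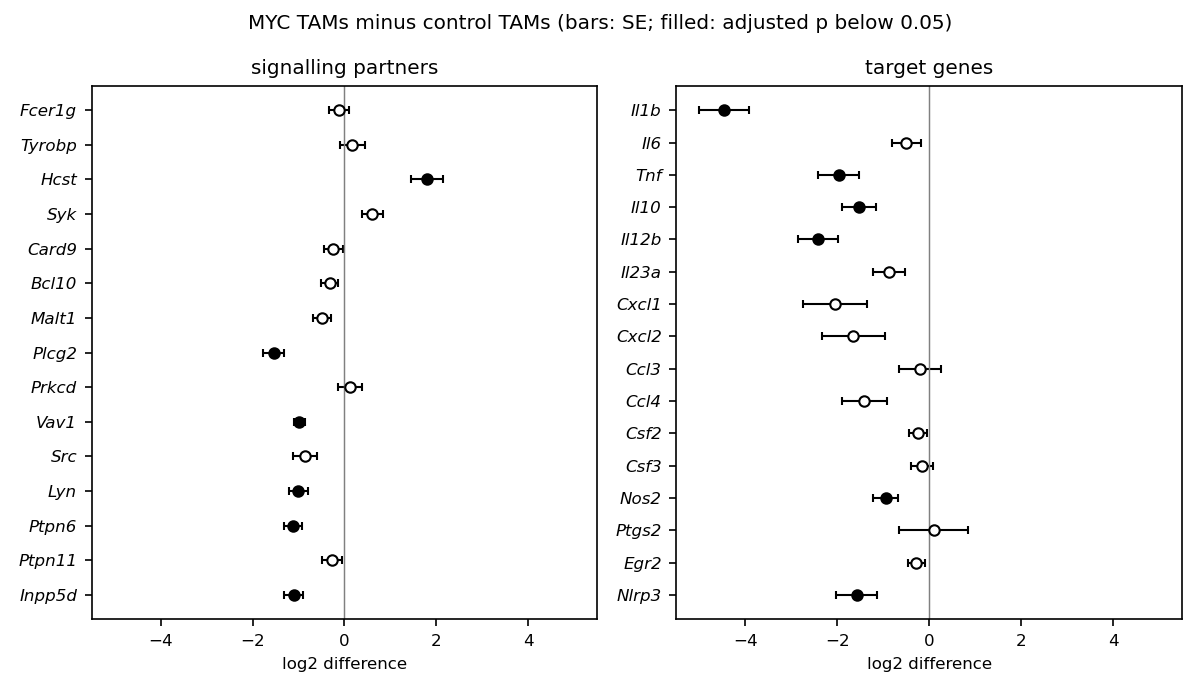
Differences of the 15 signalling partners (left) and of 16 genes induced through the receptors (right) between MYC TAMs and control TAMs on the log2 scale with standard errors, with filled points for an adjusted p below 0.05. Plcg2 lies lowest at -1.54 and Hcst highest at 1.80, and Il1b lies lowest of the right panel at -4.46.

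In the other comparisons 1 partner passed, Src, higher in control TAMs than in control MTMs by 1.23 ± 0.26 (SE; limma, adjusted p = 0.0433). It held without MYC TAM mouse 4 or control TAM mouse 5 and had an adjusted p of 0.0546 to 0.170 without each of the other 9 libraries. With the mouse as a fixed block it was 0.174, with only the control libraries in the fit 0.151 and with a pseudocount of 0.1 0.0555. In MYC TAMs against MYC MTMs, in MYC MTMs against control MTMs and in the interaction, 0 of 15 passed in limma, and 3, 0 and 5 had an unadjusted p below 0.05.

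Of 17 genes known to be induced through these receptors 16 were measured, and 6 were lower and 0 higher in MYC TAMs than in control TAMs, where 12.0% of all genes were lower, with a median difference of -1.18 against -0.02 for all genes. Il1b, an inflammatory cytokine, averaged 4.41 ± 0.46 in MYC TAMs and 8.87 ± 0.66 in control TAMs (SD, n = 3 each), a difference of -4.46 ± 0.54 (SE; limma, adjusted p = 0.000639). The cytokine genes Il12b and Tnf differed by -2.42 ± 0.44 and -1.97 ± 0.45 (SE; limma, adjusted p = 0.00578 and 0.0157). Il12b averaged 0.12 ± 0.17 in MYC TAMs, near the bottom of the scale, and 2.54 ± 0.69 in control TAMs (SD, n = 3 each). The size of its difference is limited by that low level. Il10, Nlrp3 and Nos2 differed by -1.53 ± 0.38, -1.58 ± 0.45 and -0.95 ± 0.27 (SE; limma, adjusted p = 0.0228, 0.0399 and 0.0431).

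The calls of Il1b and Il12b stood without any one library. That of Tnf had an adjusted p of 0.0618 to 0.0709 without MYC TAM mouse 4 or either of control TAM mice 3 and 5, and that of Il10 one of 0.0569 to 0.0832 without MYC TAM mouse 2 or 4 or control TAM mouse 3 or 5. Nlrp3 kept its call only without the TAM or the MTM library of control mouse 1, and Nos2 only without MYC TAM mouse 4 or control TAM mouse 1. Without each of the other 9 libraries the adjusted p was 0.0509 to 0.104 for Nlrp3 and 0.0514 to 0.139 for Nos2. With only TAM libraries in the fit it was 0.119 for Nlrp3 and 0.13 for Nos2, after quantile normalisation 0.0559 for Nlrp3, and with a pseudocount of 0.1 0.0672 for Nos2.

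Il10 also averaged 0.23 ± 0.12 in MYC TAMs (SD, n = 3), below the MYC MTMs at 2.69 ± 0.04 (SD, n = 2), a difference of -2.46 ± 0.42 (SE; limma, adjusted p = 0.0114), and had an adjusted p of 0.0887 to 0.109 without either MYC MTM library. In control TAMs against control MTMs, in MYC MTMs against control MTMs and in the interaction, 0 of the 16 passed in limma, and 6, 0 and 5 had an unadjusted p below 0.05.

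Of 9 other lectin genes of the same chromosome 6 clusters 7 were measured. Clec4b1 (DCAR), an activating relative that lies near Clec4a2, was lower in TAMs than in MTMs of both genotypes and lower in MYC than in control cells of both types. Its level averaged 1.53 ± 0.15 in MYC TAMs and 3.26 ± 0.33 in control TAMs (SD, n = 3 each). It averaged 5.22 ± 0.38 in MYC MTMs (SD, n = 2) and 7.16 ± 0.17 in control MTMs (SD, n = 3). The 4 differences were -3.70 ± 0.23 for MYC TAMs minus MYC MTMs, -3.90 ± 0.21 for control TAMs minus control MTMs, -1.74 ± 0.21 for MYC TAMs minus control TAMs and -1.94 ± 0.23 for MYC MTMs minus control MTMs (SE). Their limma adjusted p were 0.000188, 3.36e-05, 0.000586 and 0.00878, and the last was 0.0953 without MYC MTM mouse 2 and 0.111 with only MTM libraries in the fit.

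Clec4a4 was lower in TAMs than in MTMs of MYC mice, with a difference of -1.32 ± 0.28 (SE; limma, adjusted p = 0.0290, and 0.0546 to 0.200 without MYC TAM mouse 4, MYC MTM mouse 2 or 4, or control MTM mouse 5). Its adjusted p was 0.0518 with centred libraries, 0.0954 after quantile normalisation, 0.148 with only the MYC libraries in the fit and 0.0815 with the mouse as a fixed block. Olr1, a scavenger receptor for oxidised lipoprotein, was lower in TAMs than in MTMs of control mice, with a difference of -1.06 ± 0.18 (SE; limma, adjusted p = 0.0160, and 0.0626 to 0.0662 without any one control TAM library or control MTM mouse 5). It was 0.144 with only the control libraries in the fit and 0.0585 with the mouse as a fixed block. Since Clec4a2 shares some transcript stretches with Clec4a4 and Clec4b1, their values are uncertain to that extent.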

How the data were processed

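Messenger RNA of 11 libraries was analysed from 1 deposited table of log2 expression values for 17475 genes. Per the submitters' processing notes, HISAT2, DESeq2 and the builds mm10 and GRCm38.p5 were used, without roles. The authors' formula is not given in the sources used here; the deposited log2 values behaved as log2 of reads scaled for depth and exon length, plus 1. Among genes whose lowest value was shared between libraries, low values above it were whole multiples of 1 read within 0.05. This gave the depth estimates, which cover counting error only. Values at the shared lowest value were not checked in this way, so the formula is not shown to hold there. Per the labels' protocols, 500 ng of RNA with integrity numbers of 3.3 to 9.6 was selected by poly-A and prepared with a stranded kit and 8 PCR cycles. Integrity per library is not given.

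A linear model with 4 group means was fitted to all 11 libraries with limma 3.58.1 in R 4.3.3, with trended moderated variances, no block and no filter, after a test on simulated data. P-values were adjusted over all genes. Scaling, pseudocount, filter, variance trend, libraries fitted, the mouse as a block and each library left out were varied. The labels give the mouse of each library, so TAM and MTM libraries are paired. Deviations from group means correlated within mice at 0.0779 to 0.211 in control and 0.0379 and 0.0983 in MYC pairs. Between different mice the correlations were -0.189 to 0.0134 in control and -0.0983 to 0.0525 in MYC pairs. Deviations of the 2 MYC MTM libraries mirror each other, so the MYC values cannot show pairing. Separate mice are the replicates. Descriptions used Python 3.11.15, numpy 2.4.6, pandas 2.3.3 and matplotlib 3.10.9. The members, gene lists and naming rule (all members, list genes past the threshold with the shared adaptors, Syk and Card9, and the 3 most similar genes per member) were chosen with earlier results of these data known. Beside the 15 signalling partners counted, 1 more gene of that list was left out of all counts and is not reported here.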

Additional observations from a re-analysis of the deposited data

Results flagged for a closer look

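The difference between TAMs and MTMs of Clec4a2 was unlike in the genotypes: the TAM minus MTM difference in MYC mice minus that in control mice was -1.95 on the log2 scale (limma, adjusted p = 0.0296). It came from a level of 2.31 to 2.58 in MYC TAMs beside 4.47 and 4.51 in MYC MTMs, and from 4.44 to 4.57 in control TAMs beside 3.97 to 4.90 in control MTMs. The call held without 3 of the 11 libraries, each left out in turn, and had an adjusted p of 0.0523 to 0.151 without each of the other 8. Of the 9 macrophage markers, Csf1r and Emr1 also passed in this comparison, with differences of -2.50 and -1.99 (limma, adjusted p = 0.00882 and 0.0436), and their part was not tested. Groups of 2 or 3 libraries are too small for a test of a single outlying library.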

How the results depend on the processing

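Of the 45 member results, 15 passed the threshold and 8 did so under every alternative: Clec4a1 and Clec12a in control TAMs against MTMs, Clec4a2 in MYC TAMs against MTMs, and the 5 in MYC TAMs against control TAMs. Of the 15, 0 changed direction. Of 30 results that did not pass, 5 passed under an alternative and 9 changed direction. With centred libraries these were Clec4a2 in control TAMs against MTMs (0.016), Clec4e (0.0061) and Clec4a2 (0.051) in MYC against control MTMs and the interaction of Clec4a1 (0.033); after quantile normalisation they were Clec4e in MTMs (0.0017) and the interaction of Clec4a1 (0.20). With each library left out, differences crossed 0 for Clec4e (-0.25 to 0.43) and Clec5a (-0.67 to 0.026) in MYC TAMs against MTMs, Clec4e in MYC against control TAMs (-0.10 to 0.58), Clec7a (-0.10 to 0.39), Clec4a2 (-0.36 to 0.11) and Clec4e (-0.26 to 0.048) in MYC against control MTMs, Clec4a2 in control TAMs against MTMs (-0.35 to 0.11), and the interactions of Clec4a1 (-0.43 to 0.38) and Clec5a (-0.028 to 0.67). Members called with each library left out numbered 2 to 5 in MYC TAMs against MTMs, 2 to 4 in control TAMs against MTMs, 5 to 6 in MYC against control TAMs, 0 to 1 in MYC against control MTMs and 0 to 2 in the interaction; genes called numbered 163 to 1031, 214 to 537, 1734 to 2996, 23 to 128 and 21 to 301 in that order, against 784, 414, 2778, 108 and 216 with all libraries. Members called in MYC against control MTMs were 0, not 1, without the variance trend, with the pseudocount of 0.1, after quantile normalisation and with only the groups compared, where 3, 3, 3 and 4 had an unadjusted limma p below 0.05. In the interaction 2 were called with a filter on means below 1 and with the mouse as a random replicate block, and 0 after quantile normalisation and with a fixed block, where 4 had an unadjusted limma p below 0.05 each. In control TAMs against MTMs 2 were called with centred libraries, and in MYC TAMs against MTMs 1 with only the groups compared. With only the groups compared, genes called were 90 in MYC TAMs against MTMs, 196 in control TAMs against MTMs, 1547 in MYC against control TAMs and 0 in MYC against control MTMs, where 2513 had an unadjusted limma p below 0.05. With centred libraries they were 5029 in MYC against control TAMs and 129 in the interaction, of which 29.5% were higher, against 19.4% on the deposited values. With the mouse as a fixed replicate block they were 476 in MYC TAMs against MTMs, 255 in control TAMs against MTMs and 31 in the interaction, with a random block 325 in the interaction, and with a filter on means below 1 327 in the interaction. The block changed no other member call, and of list genes the fixed block ended the TAM against MTM calls of Src, Olr1 and Clec4a4 (adjusted p = 0.174, 0.0585 and 0.0815); as a mouse has 1 genotype, a fixed block could not be fitted for MYC against control. The cause of these changes was not tested. Where libraries were left out, the fit also had fewer libraries, and the part of that was not tested either. Of 20 results of list genes past the threshold, 10 passed under every alternative.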
